A study of Mus musculus with 15 samples.

Results

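MHC class I and immunoproteasome genes were described in the cecum of AIMD mice, in which the gut microbiome had been depleted with drugs, and of vehicle-treated mice. The 10 members, H2-K1, H2-D1, B2m, Tap1, Tap2, Tapbp, Psmb8, Psmb9, Psmb10 and Nlrc5, were chosen by symbol, and all 10 stood in the table, out of 24279 genes above 0 in at least 1 mouse. The 7 AIMD mice were gavaged 2 times a day with ampicillin, neomycin, vancomycin, metronidazole and the antifungal amphotericin B, and the 8 vehicle-treated mice with water. All were male C57BL/6 wild-type mice on normal chow, labelled 20 weeks of age, and the emptied cecum was taken on day 30. Mice were housed several to a cage, and which mice shared a cage is not given in the sources used here. Values are FPKM, fragments scaled to gene length and to a depth set for each library, which is not its plain read count. There was 1 library a mouse.

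MHC class I molecules show fragments of a cell's own proteins, and of viruses or bacteria inside it, to CD8 T cells. Proteins are cut into peptides by the proteasome, whose catalytic subunits can be exchanged for the immunoproteasome subunits encoded by Psmb8, Psmb9 and Psmb10. The TAP transporter, a pair of Tap1 and Tap2, carries the peptides into the endoplasmic reticulum, where tapasin, encoded by Tapbp, helps to load them on a heavy chain bound to beta-2 microglobulin. Interferon gamma and the transactivator NLRC5 are known inducers of most of these genes, and cells of the gut epithelium as well as immune cells express them.

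Of the 10 members, 7 lie on chromosome 17, in the major histocompatibility complex, B2m lies on chromosome 2, and Psmb10 and Nlrc5 lie on chromosome 8. RefSeq promoter windows of build GRCm38.p6, from 250 bases before to 50 after the start, were matched by symbol for 8 of the 10 members. The windows of the classical heavy chains, the light chain and the pair of immunoproteasome genes that fell most are shown, since the results turn on these genes. Capitals mark, on either strand, the NF-kB consensus, AANNGAAA (the core bound by interferon regulatory factors), the interferon-stimulated response element (GAAA, then NN, then GAAA), TTCNNNGAA (the gamma-activated site), TGACG (the core of a cAMP response element) and CCAAT. H2-K1 is chr17:34000298-34000597 on the minus strand, H2-D1 is chr17:35262844-35263143 on the plus strand, B2m is chr2:122147437-122147736 on the plus strand, Psmb9 is chr17:34187281-34187580 on the minus strand and Psmb10 is chr8:105938343-105938642 on the minus strand.
H2-K1: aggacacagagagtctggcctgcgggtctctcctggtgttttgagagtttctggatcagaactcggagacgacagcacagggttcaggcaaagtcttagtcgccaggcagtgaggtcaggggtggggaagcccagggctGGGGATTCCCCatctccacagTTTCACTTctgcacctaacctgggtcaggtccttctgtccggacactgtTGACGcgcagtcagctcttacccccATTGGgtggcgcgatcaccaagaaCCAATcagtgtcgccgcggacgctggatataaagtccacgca
H2-D1: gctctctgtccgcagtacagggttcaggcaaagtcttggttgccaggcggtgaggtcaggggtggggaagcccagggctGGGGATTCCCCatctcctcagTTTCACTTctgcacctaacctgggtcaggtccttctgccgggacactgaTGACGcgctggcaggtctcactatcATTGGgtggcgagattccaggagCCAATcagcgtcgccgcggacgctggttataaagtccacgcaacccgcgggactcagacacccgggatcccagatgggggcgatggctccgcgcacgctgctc
B2m: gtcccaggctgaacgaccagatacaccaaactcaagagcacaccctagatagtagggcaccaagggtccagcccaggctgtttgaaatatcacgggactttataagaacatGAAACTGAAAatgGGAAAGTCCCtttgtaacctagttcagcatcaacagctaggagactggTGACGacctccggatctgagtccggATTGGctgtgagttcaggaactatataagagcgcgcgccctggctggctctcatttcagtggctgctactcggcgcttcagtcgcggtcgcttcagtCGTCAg
Psmb9: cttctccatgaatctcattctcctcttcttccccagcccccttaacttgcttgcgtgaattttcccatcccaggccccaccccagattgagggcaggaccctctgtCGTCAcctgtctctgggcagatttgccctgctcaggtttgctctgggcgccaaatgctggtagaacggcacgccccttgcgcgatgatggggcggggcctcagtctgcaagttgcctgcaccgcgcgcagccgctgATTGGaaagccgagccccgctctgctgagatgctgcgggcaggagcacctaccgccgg
Psmb10: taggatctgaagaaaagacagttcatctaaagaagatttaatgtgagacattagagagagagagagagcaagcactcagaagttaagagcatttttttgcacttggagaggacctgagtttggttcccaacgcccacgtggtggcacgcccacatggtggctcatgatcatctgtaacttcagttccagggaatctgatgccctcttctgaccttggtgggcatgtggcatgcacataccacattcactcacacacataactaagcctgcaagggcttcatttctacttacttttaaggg

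H2-K1, H2-D1 and B2m each held a match to the NF-kB consensus, which 8.46% of all 32851 promoter windows hold, and a match to AANNGAAA, which 23.9% hold. In B2m the latter was part of the interferon-stimulated response element, which 3.44% of the windows hold. The same 3 members held TGACG followed 20 bases later by ATTGG, starting at position -41 of H2-K1, -101 of H2-D1 and -78 of B2m relative to the start. These positions depend on the start used for each gene, since the next CCAAT stood at 8 in H2-K1 and at -53 in H2-D1. The pair of TGACG and ATTGG, searched after the members' windows had been read, stood in 31 windows of 27 genes (0.0944% of all windows), among them the class I-like H2-M3. Psmb8 held the gamma-activated site letters TTCNNNGAA, which 8.3% of the windows hold, and none of the other letters shown in capitals. Tap1 and Psmb9 start 226 bases apart on opposite strands and their windows share 275 bases, so 1 window is shown for both. They held TGACG and CCAAT, as 20.8% and 37.4% of all windows do, and Psmb10 held none of the capitalised letters in its window. The RefSeq starts lay 0 to 3579 bases from the outermost start of the same gene in GENCODE M21, the farthest being that of Tapbp. For each member the window nearest to that outermost start had been taken. A match of letters is a description and was not tested for binding.

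AIMD mice had lower levels of 6 of the 9 members that could be tested. The immunoproteasome genes Psmb10 and Psmb9 fell most, to 39.6% and 41.9% of the vehicle mean, followed by the transporter gene Tap1 at 55.3%, the heavy chain gene H2-K1 at 60.1%, Psmb8 at 62.9% and H2-D1 at 76.7%. B2m, Tap2 and Tapbp did not pass the test, and no member was called higher. Calls are adjusted p under 0.05 in limma, after Benjamini-Hochberg adjustment over the 11971 genes that reached 0.5 FPKM in 7 or more mice. In the same test 36% of all genes tested were called, 16.6% lower and 19.4% higher in AIMD mice. The median log2 difference was -0.63 over the 9 members tested and 0.01 over all genes tested. All 9 members exceeded the minimum FPKM in all 15 mice, and Nlrc5 did not pass the filter. In whole tissue, fewer cells of a type and less RNA per cell cannot be told apart.

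**Figure D1:**
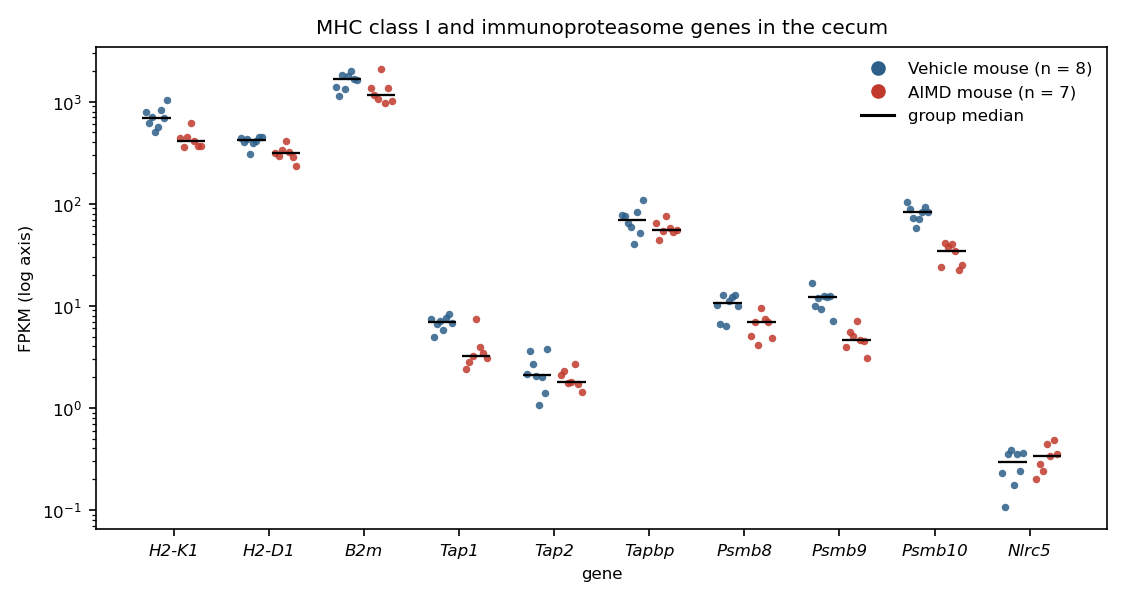
FPKM (log axis) of the 10 members in each mouse, blue for the 8 vehicle-treated and red for the 7 AIMD mice, with a black line at each group median. The groups of Psmb10 do not overlap, those of B2m, Tap2, Tapbp and Nlrc5 overlap widely, and the levels run from 0.106 for Nlrc5 to 2094 for B2m.

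FPKM are per length, so a comparison of levels between genes depends on the length used for each. This was 1270 bases for Psmb10 and 3659 for Psmb9. In vehicle-treated mice their median reads were 797 and 353.5, closer together than their FPKM. In vehicle-treated mice B2m was the most abundant member with a mean of 1592 FPKM, ahead of H2-K1 at 719, H2-D1 at 409, Psmb10 at 81.4 and Tapbp at 70.1. Psmb9 at 11.5, Psmb8 at 10.2, Tap1 at 6.83, Tap2 at 2.35 and Nlrc5 at 0.276 followed. The ranges of Psmb10 and Tapbp, of Psmb9 and Psmb8, and of Psmb8 and Tap1 overlapped across mice. Psmb10 stood above Tapbp and Psmb9 above Psmb8 in 5 of 8 mice each and Psmb8 above Tap1 in 7 of 8, and the other neighbours did not overlap. In AIMD mice Psmb10 stood below Tapbp, with 32.2 against 57.8 FPKM and no overlap, and Psmb8 stood above Psmb9, with 6.42 against 4.83 FPKM and overlapping ranges. By FPKM, H2-K1 and H2-D1 were thus each below B2m in both groups. Each TAP subunit was below each of these heavy chains by a wide margin. The order of H2-K1 and B2m depends on the lengths used, 2608 and 860 bases. In vehicle-treated mice their median reads were 14203 and 10473.5, the other way round, and in AIMD mice 13298 and 14996. The levels of other class I heavy chains were not added to these.

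H2-K1, the classical heavy chain H-2K of the class I molecule, is encoded at chr17:33996017-34000347 on the minus strand of GRCm38. It ranged from 363 to 612 FPKM (median 413) in AIMD mice and from 504 to 1039 (median 699) in vehicle-treated mice. All 7 AIMD mice lay below the vehicle mean, and 6 of them, all but replicate 4, below every vehicle-treated mouse. The log2 difference was -0.72 ± 0.16 (SE), with an adjusted p of 0.00273 in limma.

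H2-D1, the other classical heavy chain of this strain, is encoded at chr17:35262730-35267499 on the plus strand. It ranged from 234 to 412 FPKM (median 317) in AIMD mice and from 307 to 446 (median 422) in vehicle-treated mice. The groups overlapped, with 3 AIMD mice below the lowest vehicle-treated mouse, and that mouse, replicate 4, was itself well below the next one at 391.9 FPKM. H2-D1 differed by -0.39 ± 0.13 on the log2 scale, with an adjusted p of 0.0262. This call was lost without AIMD replicate 6 or 7 (adjusted p = 0.0547 and 0.0602 in limma). Separately, it was lost under quantile normalization (0.0707) and with the replicate number as a block (0.0845). Within the mice above and below a clock-gene score of 0 it was lost as well (0.272 and 0.119). Heavy chain genes resemble each other, and 9.63% of the 50-base windows of H2-K1 and 12.8% of those of H2-D1 also occur in other genes.

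B2m, beta-2 microglobulin, is the light chain that every class I heavy chain needs to reach the cell surface. It ranged from 974 to 2094 FPKM (median 1166) in AIMD mice and from 1137 to 1985 (median 1652) in vehicle-treated mice. The ranges overlapped over most of their length, and the highest AIMD mouse, replicate 4, stood above every vehicle-treated mouse. The log2 difference was -0.33 (95% interval -0.70 to 0.05), with an adjusted p of 0.159. Without AIMD replicate 4 it was -0.45 with an adjusted p of 0.0335, so that 1 mouse decides whether this member is called.

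Among the genes of peptide transport and loading, Tap1 fell and Tap2 and Tapbp did not pass the test. Tap1, a subunit of the TAP transporter, ranged from 2.40 to 7.48 FPKM (median 3.25) in AIMD mice and from 4.97 to 8.23 (median 6.95) in vehicle-treated mice. The lowest vehicle-treated mouse stood above all AIMD mice but replicate 4, and the highest of these 6 had 3.90 FPKM. Tap1 differed by -0.84 ± 0.18 on the log2 scale, with an adjusted p of 0.00166, and of 3.86e-05 without AIMD replicate 4. Tap2, the partner subunit, ranged from 1.45 to 2.68 FPKM in AIMD mice, inside the range of 1.08 to 3.81 in vehicle-treated mice. Its log2 difference was -0.15 (95% interval -0.56 to 0.26), with an adjusted p of 0.584. Tapbp, tapasin, ranged from 44.2 to 75.8 FPKM in AIMD mice and from 40.6 to 109.5 in vehicle-treated mice. Its log2 difference was -0.24 (95% interval -0.61 to 0.14), with an adjusted p of 0.313. The transporter's subunits thus had different results, but the difference between Tap1 and Tap2 was not tested. The exons of Tapbp share 149 bases with Zbtb22 on the same strand, so reads there cannot be assigned to 1 of the genes.

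The immunoproteasome genes were all lower in AIMD mice. Psmb10, the subunit beta2i with trypsin-like activity, is encoded at chr8:105935735-105938444 on the minus strand, apart from the other members on chromosome 17. It ranged from 22.6 to 41.1 FPKM (median 34.7) in AIMD mice and from 57.5 to 103.1 (median 82.5) in vehicle-treated mice. All 7 AIMD mice were below all 8 vehicle-treated mice, as in 3.3% of all genes tested (5.27% had every AIMD mouse above, and 8.57% no overlap in either direction), and Psmb10 was the 1 member whose groups did not overlap. The log2 difference was -1.34 ± 0.16, with an adjusted p of 1.51e-05.

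Psmb9, the subunit beta1i, ranged from 3.11 to 7.12 FPKM (median 4.62) in AIMD mice and from 7.06 to 16.7 (median 12.1) in vehicle-treated mice. The ranges touched at a single pair of mice, AIMD replicate 4 with 7.12 and Vehicle replicate 8 with 7.06 FPKM. Psmb9 differed by -1.17 ± 0.17 on the log2 scale, with an adjusted p of 8.83e-05. The gene models of Psmb9 and Tap1 share 212 exonic bases on opposite strands, and the libraries were stranded, but whether counting used the strand is not given in the sources used here. The same holds for Tapbp, Tap2 and Psmb8, whose exons share 904 bases with Gm19412, 533 with Gm15821 and 498 with Gm20496 on the opposite strand.

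Psmb8, the subunit beta5i with chymotrypsin-like activity, ranged from 4.10 to 9.48 FPKM (median 7.01) in AIMD mice and from 6.31 to 12.8 (median 10.6) in vehicle-treated mice. All 7 AIMD mice were below the vehicle mean, and 6 vehicle-treated mice were above the highest AIMD mouse. Psmb8 differed by -0.63 ± 0.19 on the log2 scale, with an adjusted p of 0.0149. With an exact rank-sum test in place of limma the adjusted p was 0.0574.

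Nlrc5, the transactivator of class I genes, was at the limit of what these libraries measure, with 7 to 49 reads a mouse. It ranged from 0.202 to 0.488 FPKM in AIMD mice and from 0.106 to 0.388 in vehicle-treated mice. The groups overlapped widely, and the highest values were in AIMD mice, 2 of which stood above every vehicle-treated mouse. Depth here limits any statement on a difference in either direction.

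To set each immunoproteasome subunit against the constitutive subunit whose place it takes, the ratio of their FPKM was formed in every mouse. The size of a ratio depends on the lengths used for both genes, but its log2 difference between groups does not. The ratio of Psmb10 to Psmb7 ranged from 0.188 to 0.414 in AIMD mice and from 0.645 to 1.56 in vehicle-treated mice, without overlap. Its mean log2 differed by -1.84 (exact permutation p = 0.000155, the smallest possible, and 0.000466 after adjustment over the 3 ratios). The ratio of Psmb9 to Psmb6 ranged from 0.0651 to 0.164 in AIMD mice and from 0.114 to 0.273 in vehicle-treated mice, and 6 of the 7 AIMD mice fell short of every vehicle-treated mouse. Its mean log2 differed by -1.24 (exact permutation p = 0.000777, adjusted 0.00117). The ratio of Psmb8 to Psmb5 overlapped, at 0.170 to 0.724 in AIMD mice and 0.191 to 0.925 in vehicle-treated mice. Its mean log2 differed by -0.34 (exact permutation p = 0.402). The last ratio is the least certain, since 54.1% of the 50-base windows of Psmb5 also occur in other genes, mostly pseudogene copies. Among the constitutive subunits Psmb7 rose by 0.48 on the log2 scale (adjusted p of 0.0275 in limma, up to 0.0614 when 1 mouse was left out), while Psmb6 had -0.02 (0.960) and Psmb5 -0.32 (0.359).

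**Figure D2:**
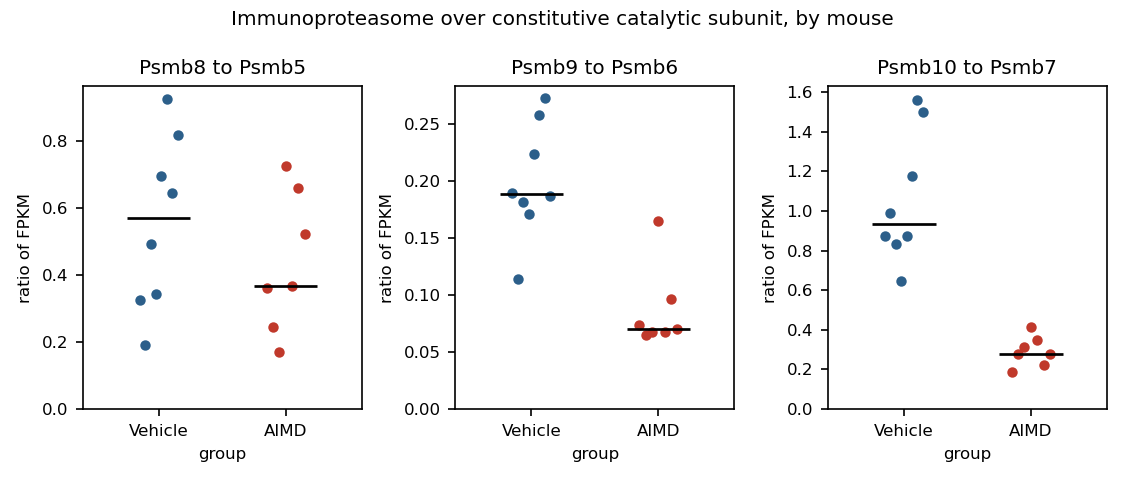
Ratio of the FPKM of each immunoproteasome subunit to that of its constitutive counterpart (linear axes from 0), 1 point a mouse, with a black line at the group median. The medians of Psmb10 to Psmb7 are 0.280 in AIMD and 0.932 in vehicle-treated mice and the groups do not overlap, while those of Psmb8 to Psmb5 are 0.367 and 0.569 and the groups overlap.

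The members varied together only in part. With each group centred on its own mean, 31 of the 36 pairs of tested members had a positive correlation over the 15 mice, with a median r of 0.41. The correlations ran from -0.31 for Tap2 with Psmb9 to 0.79 for H2-K1 with Tapbp, and Tap1 and Psmb9, which start next to each other, had 0.51. These are descriptions, and the points share the library, its depth and its mixture of cells.

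AIMD replicate 4 stood apart, being the highest AIMD mouse in 7 of the 10 members. It was also the least deeply sequenced AIMD mouse, with 8679672 reads on genes, and the part of depth or tissue mixture in its values was not tested. Since it is the highest or next to highest AIMD mouse in all 6 called members, leaving it out could only deepen their falls. Without it, 7 members were called lower, and the log2 differences were -1.41 for Psmb10, -1.26 for Psmb9, -0.81 for H2-K1, -0.73 for Psmb8 and -0.46 for H2-D1, with Tap1 as given above. Among the vehicle-treated mice, replicate 4 was the lowest in 4 members and replicate 8 the highest in 3.

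**Figure D3:**
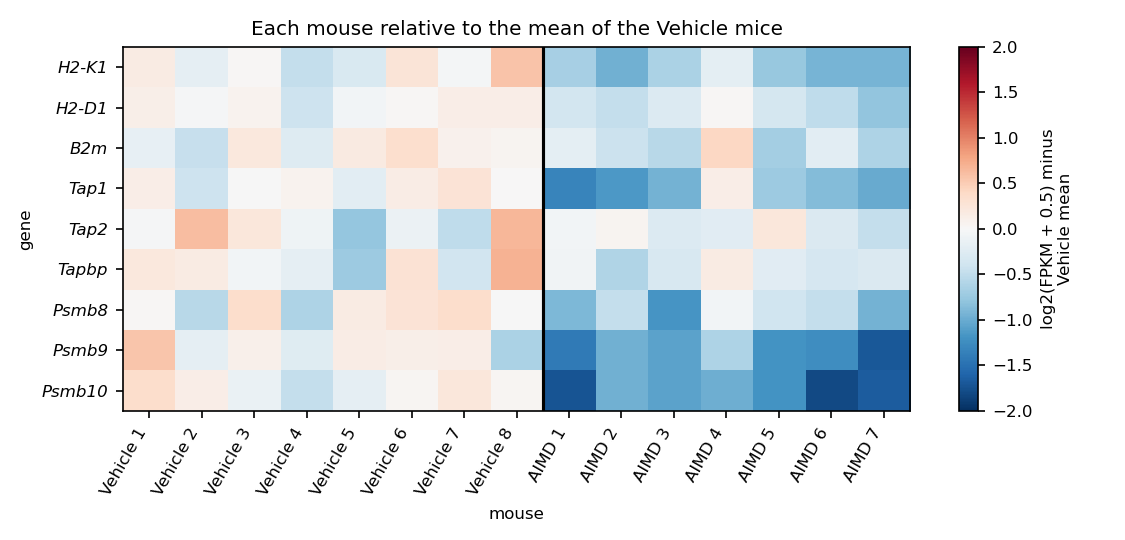
Level of the 9 tested members in each mouse as log2(FPKM + 0.5) minus the mean of the 8 vehicle-treated mice, in blue where lower and red where higher, with a black line between the groups. Psmb9 and Psmb10 are below 0 in all 7 AIMD mice, from -0.62 to -1.70 and from -0.96 to -1.81, and AIMD replicate 4 is the palest column of its group.

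The study accounted for time of sacrifice, which the labels do not give, so the members were also fitted by a score of clock genes. With the score as a covariate the same 6 members were called, and Psmb10 had -1.34 and Psmb9 -1.17. Within the 3 AIMD and 4 vehicle-treated mice with a score above 0, and within the 4 and 4 mice below 0, all 9 members had negative differences. In the mice above 0 the limma calls were Psmb10 (-1.23, adjusted p = 0.00911), Psmb9 (-1.21, 0.00533) and Tap1 (-1.08, 0.00387). There 848 of the 11971 genes tested were called lower and 1035 higher. In the mice below 0 the limma calls were Psmb10 (-1.44, 0.00267), Psmb9 (-1.13, 0.0141), H2-K1 (-0.82, 0.0420) and Psmb8 (-0.66, 0.0376). Among the same genes 1134 were called lower and 1343 higher in these mice. Psmb9 and Psmb10 were called in both parts. The parts were formed after the data had been seen and reuse the mice of the main fit.

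Related genes of the pathway were taken as lists, and they moved in different directions. Of all genes tested, 16.6% were called lower and 19.4% higher. Of 16 other class I and class I-like heavy chain genes tested, 7 fell and 1 rose, with a median log2 difference of -0.43. H2-Q1 fell by 1.14, H2-Q10 by 1.03, the iron regulator Hfe by 0.83 and H2-T23, the ligand of an inhibitory receptor of natural killer cells, by 0.60 on the log2 scale. H2-Q1 ranged from 6.72 to 12.8 FPKM in AIMD and from 17.2 to 25.97 in vehicle-treated mice without overlap, and H2-Q4 had a log2 difference of 0.33 with an adjusted p of 0.0441, up to 0.104 when 1 mouse was left out. Of the 50-base windows of these genes except Hfe, 13.6% (H2-T23) to 21.8% (H2-Q4) also occur in other genes. Of 14 other genes of peptide loading and trimming, 6 rose and none fell, with a median of 0.27, and the chaperone genes Calr (0.57) and Hspa5 (0.59), the peptidase genes Tpp2 (0.62), Thop1 (0.98) and Npepps (0.34) and the translocon gene Sec61a1 (0.94) rose. Pdia3 (-0.15) and the trimming enzyme Erap1 (-0.12) were not called. When 1 mouse was left out, the adjusted p in limma rose to as much as 0.0633 for Calr and 0.0859 for Npepps.

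For the rest of the proteasome, the shares called lay near those of all genes tested (19.4% higher and 16.6% lower), so nothing is read from these counts. Of 11 other subunits of the 20S core, 3 rose (Psma2, Psma3 and Psma4) and 2 fell, Psmb4 by 0.67 and Psmb1 by 0.54, with a median of -0.09. The adjusted p in limma rose to as much as 0.0963 for Psma3 and 0.0506 for Psmb1 when 1 mouse was left out. Of 17 subunits of the 19S cap, 5 rose and 3 fell, with a median of 0.10, led by Psmd1 (0.97), Psmd6 (0.74) and Psmd14 (0.72) upward and Psmd2 (-0.92), Psmd4 (-0.88) and Psmd8 (-0.52) downward. Of 10 activator and assembly genes, Psme3 rose by 0.44, with an adjusted p of 0.0343 (up to 0.0795 when 1 mouse was left out), and Psmg4 fell by 0.80. The interferon-inducible activator subunit Psme2 fell by 0.43 with an adjusted p of 0.0473, up to 0.104 when 1 mouse was left out, and its partner Psme1 had -0.12 (0.560). Of the windows of Psme2, 28.3% are shared with other genes.

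Genes upstream of the members are described next, against 19.4% of all genes tested called higher and 16.6% lower. Of 15 regulators of class I transcription, 2 rose, among them Nfkb1 by 0.94, and 1 fell, Rfx5, a subunit of the factor that binds the promoter X box, by 0.61. Irf1, an interferon-induced activator of these genes, had -0.12 (adjusted p of 0.611 in limma). Ifng itself was not tested, with 0 to 0.0995 FPKM in AIMD and 0 to 0.224 in vehicle-treated mice. Of 22 interferon-induced genes tested, 8 rose and 2 fell, with a median of 0.26, led by Oasl2 (1.42), Isg15 (1.16) and Ifit3 (1.05), while Bst2 fell by 0.97 and Gbp4 by 0.62. Of 11 genes of interferon receptors and signalling, 3 rose (Jak1, Jak2 and Socs3) and 3 fell (Socs1, Ifngr2 and Tyk2). With 1 mouse left out, the adjusted p in limma rose to as much as 0.0551 for Ifngr2 and 0.0535 for Tyk2. Of 11 MHC class II genes, 3 fell, H2-DMb2 by 1.05, H2-DMb1 by 0.81 and H2-Ab1 by 0.69, while H2-Aa (-0.32) and Cd74 (-0.46) were not called and Ciita, their transactivator, did not pass the filter. All 12 tested genes of CD8 and cytotoxic lymphocytes had positive differences, with a median of 0.34, as had 6057 of the 11971 genes tested. Of the 12, Ccl5 (1.34) and Nkg7 (0.92) were called higher and Cd8a (0.22) was not called.

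**Figure D4:**
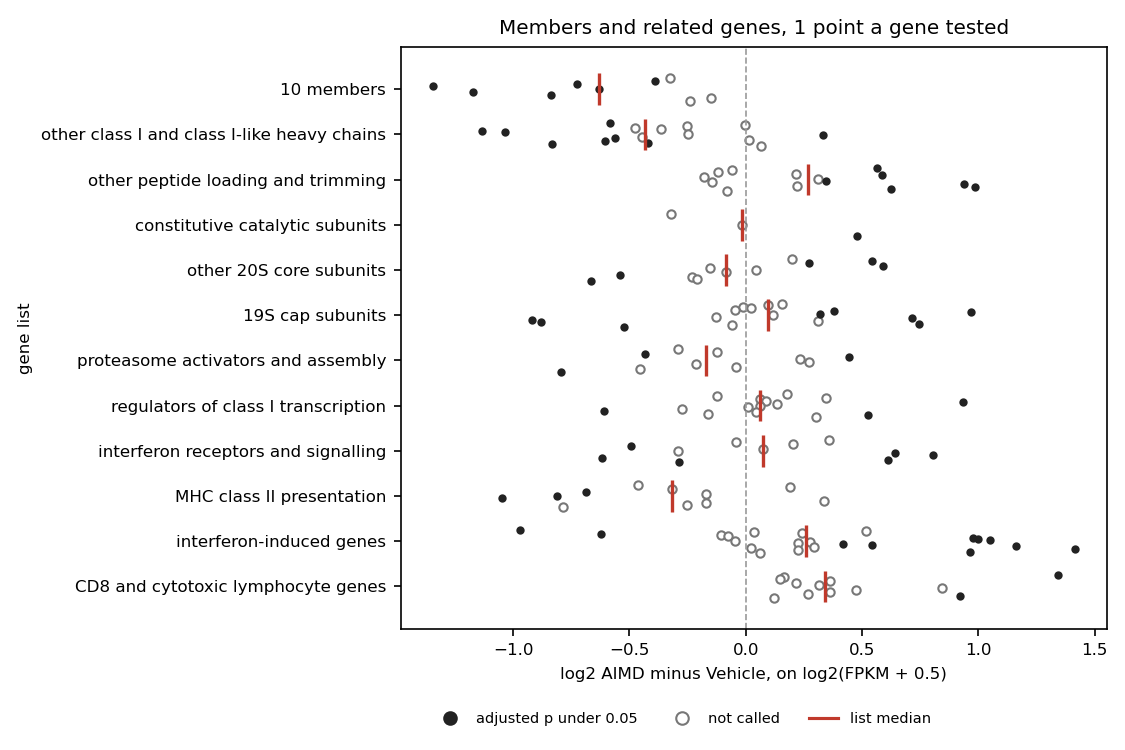
Log2 difference between AIMD and vehicle-treated mice for the members and 11 lists of related genes, 1 point a gene tested, filled where the adjusted p is under 0.05, with a red line at the list median. All 9 tested members lie below 0 and 6 of them are filled, while the points of the other proteasome lists lie on both sides of 0.

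Markers of the cell types in the cecum wall moved as follows, against 19.4% of all genes tested called higher and 16.6% lower. Of 18 immune cell markers tested, 3 were higher (Lyz2, Csf1r and Cd68) and 2 lower, among them Coro1a. The adjusted p of Coro1a in limma rose to as much as 0.0781 when 1 mouse was left out. Ptprc had -0.32 (adjusted p = 0.331 in limma). The summed FPKM of the immune cell markers ran from 161 to 497 in AIMD and from 121 to 393 in vehicle-treated mice. Of 13 epithelial markers, 2 were higher and 2 lower, Epcam not being called, with sums of 6990 to 10917 and of 6181 to 8657. All 7 smooth muscle markers were negative and 1 was called lower, with sums of 214 to 817 in AIMD and 519 to 3037 in vehicle-treated mice, and 3 of 4 tested markers of enteric neurons and glia were lower. The 7 AIMD libraries were also deeper, with a median of 11244634 reads on genes against 7855358 (exact permutation p = 0.0345). The part of tissue mixture and depth in the members' differences was not tested.

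The genes most like the members over the 15 mice, with each group centred, were Car4, a carbonic anhydrase of the epithelial surface (r = 0.88), Tmbim1 (0.85), the channel gene Panx1 (0.84), Trim40 (0.83), Upb1 (0.82), Tnfsf9 (0.82), and Tmem134, Rdh16, Sprr2a3 and Kctd5 (0.79 each). The measure is Pearson's r with the mean of the centred and scaled members. In this mean AIMD replicate 4 stood at 1.59 and the next mouse, Vehicle replicate 8, at 0.53. AIMD replicate 4 was also far above its group for Car4, Rdh16, Tnfsf9 and Trim40. It therefore weighs heavily in these r values, which were not formed without it. Car4 had a log2 difference of -0.30 (adjusted p = 0.337) and Trim40 of 0.21 (0.394), and Tmbim1 and Panx1 fell by 0.41 and 0.45. Sprr2a3 had the largest difference of the 10 and rose by 1.63 on the log2 scale (adjusted p of 1.08e-05 in limma).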

How the data were processed

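RNA of 7 AIMD and 8 vehicle ceca was sequenced from stranded poly-A libraries, and samples were grouped by their labels. The authors mapped reads to GRCm38 with STAR, counted them with featureCounts and deposited FPKM by gene symbol, 1 column a mouse. The authors' own tests were made in DESeq2, with treatment and time of sacrifice as terms. Versions are not given in the sources used here. Of 45808 rows, 27 have a symbol turned into a date and 4 with a repeated symbol were left out.

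Size factors (median of ratios over 13594 genes) were 1.01 in every mouse, and values were tested as log2 of the scaled FPKM plus a pseudocount of 0.5, a scale on which changes of low genes come out too small. The 11971 genes that reached 0.5 FPKM in 7 or more mice were tested, two-sided, with limma 3.58.1 (R 4.3.3), lmFit and eBayes with a trend, Benjamini-Hochberg adjustment and a threshold of 0.05. The fit was tested on simulated data. Ratios were tested by exact permutation over 6435 splits. Replicates are different mice. Whole reads were recovered from the FPKM for 24278 of 24279 genes, within 0.02 of a read. The annotated length gave whole reads for 68.1% of genes. For the others the shortest length that gave whole reads was used, so the number recovered is not a check of the lengths. The recovered reads came to 8679672 to 18108573 on genes in AIMD and 4372409 to 14405935 in vehicle-treated mice. They served for depth and for an added test with voom. The depth by which the deposited values are scaled was not the number of reads on genes. It was 5162140 against 6486308 in Vehicle replicate 5 and 13139100 against 11244634 in AIMD replicate 6. Scaling by the reads on genes instead was not tested. Low depth limits the precision of low genes such as Nlrc5.

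The members and lists were chosen with earlier results of these data known. Named from each list were all called genes where there were at most 6, otherwise the 3 that rose most and the 3 that fell most, besides a few of known role. Cell type markers, except Ptprc, Cd8a and Epcam, were named after their values were seen. A few called genes are counted but not reported here by name. Alternatives were other pseudocounts, filters, normalizations, variance models and tests, a clock-gene covariate, a replicate block and leaving out each mouse, and, added after seeing the data, fits within each side of a clock score of 0. Positions are those of GENCODE M21, and shared sequence was counted in 50-base windows. Other steps used Python 3.11.15, numpy 2.4.6, pandas 2.3.3 and matplotlib 3.10.9.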

Additional observations from a re-analysis of the deposited data

Results flagged for a closer look

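Within a group of 7 or 8 mice, 17 of 162 sets of values had 1 mouse far from the rest, by Dixon's criterion. For independent, normally distributed values chance gives about 1 in 20. The FPKM here were not logged, and the sets share the same mice and vary together, so no excess over chance is read from the count. In 8 of the 17 sets the mouse was AIMD replicate 4, always the highest of its group. Among the members it had 612 FPKM of H2-K1, with the next AIMD mouse at 453. It had 2094 FPKM of B2m, with the next at 1373, and 7.48 FPKM of Tap1, with the next at 3.90. Its ratio of Psmb9 to Psmb6 was 0.164, with the next at 0.0964. Among the genes most like the members, which were chosen for varying with them from mouse to mouse, it had 654 FPKM of Car4, 5.52 of Rdh16, 2.44 of Tnfsf9 and 66.1 of Trim40. In the vehicle-treated group, replicate 4 had 307 FPKM of H2-D1, below the next mouse at 391.9.

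The other mice far from their group were Vehicle replicate 8 for Ciita (0.391 FPKM) and Sprr2a3 (120.6), Vehicle replicate 3 for Ifng (0.224), Vehicle replicate 5 for Nfkb1 (4.29), Vehicle replicate 6 for Oasl2 (7.83) and Vehicle replicate 1 for Psmb4 (375) and Rdh16 (4.90). AIMD replicate 1 was far from its group for Psme3 (39.2 FPKM). What set these mice apart was not tested.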

How the results depend on the processing

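The direction of all 9 tested members stayed the same in all 29 alternatives run. Psmb9 and Psmb10 were called in all of them, H2-K1 in all but the mice with a clock score above 0 (adjusted p = 0.0613), Tap1 in all but those below 0 (0.0756), and Psmb8 in all but those above 0 (0.111) and the exact rank-sum test (0.0574). H2-D1 lost its call in 6 and B2m gained one in 1. Not all 29 are distinct. The fit on the mice of the replicate block, without the block, is the fit without Vehicle replicate 8. Leaving out the size factors changed every mouse by nearly the same factor of 1.01, so little could change there. Within the mice with a clock score above 0, fewer mice were tested, 3 members were called lower, 17 listed genes higher and 15 lower (32 and 23 in all mice), and of all genes 1035 higher and 848 lower. Below 0 these counts were 19 and 13 for listed genes and 1343 and 1134 for all genes. Leaving out 1 mouse gave 5 to 7 members lower, 26 to 32 listed genes higher and 19 to 24 lower, and 1930 to 2407 genes higher and 1603 to 2231 lower over all genes. Correlations of same-numbered mice ran from -0.35 to 0.43, 2 of 7 were over 0.1 and in 1 pair the mice correlated best with their own number, so the numbers were not taken to pair the mice. With the replicate block, on 14 mice, 5 members were called lower, H2-D1 having -0.37 with an adjusted p of 0.0845, and 2388 genes rose and 2258 fell, against 2407 and 2231 in the same mice without it. The ratios of Psmb9 to Psmb6 and of Psmb10 to Psmb7 then had an exact p of 0.0156, the smallest possible with 7 pairs. Few reads limit Nlrc5 and Ifng.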
